A study of Mus musculus with 12 samples.

Results

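The conjugation enzymes of phase II metabolism were examined in mouse colon epithelium: the glutathione S-transferases (Gst and the membrane-bound Mgst), the UDP-glucuronosyltransferases (Ugt) and the cytosolic sulfotransferases (Sult). Members were taken by gene symbol alone, as class a, k, m, o, p, t or z Gst genes, Mgst genes, Ugt genes of families 1 to 3 and Sult genes of families 1 to 6. The rule found 63 of the 24391 symbols in the files, of which 21 were Gst, 3 were Mgst, 20 were Ugt and 19 were Sult. It used no measured value, but the members were chosen with earlier results of these data known.

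The libraries came from colon epithelial cells of C57BL/6 mice at 18 weeks of age, in 3 groups of 4. The control group is described by that word alone. The AOMDSS group received azoxymethane (AOM), a chemical carcinogen, and dextran sulfate sodium (DSS), which damages and inflames the colon lining, and the AOMDSSCurcumin group received both and also curcumin, a polyphenol of turmeric; it is called the curcumin group here. Doses, routes and timing are not given in the sources used here, and curcumin without AOM and DSS was not analysed, so the values describe curcumin only on top of AOM and DSS. The cells were scraped from the mucosa after the proximal colon and right-sided tumours had been cut away, so the values describe the remaining mucosa and not those tumours. Whether the 12 libraries are from as many animals is not stated, and p-values therefore measure the spread between these libraries. Libraries are numbered 0 to 3 within a group, as in their titles.

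Phase II enzymes attach a polar group to a foreign or endogenous compound, which makes it easier to excrete. Glutathione transferases add glutathione to electrophiles, Ugt enzymes of the endoplasmic reticulum add glucuronic acid from UDP-glucuronate, and sulfotransferases add sulfate from the donor PAPS. In the gut lining these enzymes meet dietary compounds, drugs, bile acids and steroids before they enter the blood, and several Gst and Ugt genes are known targets of the transcription factor Nrf2 (gene Nfe2l2) and of xenobiotic receptors. Members of the Mgst family act on lipid hydroperoxides as well as on drugs, and Mgst2 can also join glutathione to leukotriene A4.

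The promoters of Mgst2, Gstp1 and Gstp2 are shown because Mgst2 was the 1 member that passed the test and Gstp1 and Gstp2 were, with Gstt1, those that came closest to it. The sequences are RefSeq GRCm38.p6 bases upstream of the annotated start, 5′ to 3′ on the gene's strand. Each was cut where exons annotated in GENCODE M21 begin, except that the Gstp1 run goes on to its last marked base. All but the first of the marked Gstp1 bases therefore lie inside an annotated exon. GENCODE M21 also holds exons further upstream, from base 51660360 in Mgst2 and up to base 4046023 in Gstp2. Those runs thus lie within the annotated span of their genes. Capitals mark TGAGTCA on either strand, the sequence that AP-1 factors are known to bind, which reads TGACTCA on the other strand; this motif was searched after the sequences had been seen.
Mgst2, chr3:51660929-51661177, plus strand: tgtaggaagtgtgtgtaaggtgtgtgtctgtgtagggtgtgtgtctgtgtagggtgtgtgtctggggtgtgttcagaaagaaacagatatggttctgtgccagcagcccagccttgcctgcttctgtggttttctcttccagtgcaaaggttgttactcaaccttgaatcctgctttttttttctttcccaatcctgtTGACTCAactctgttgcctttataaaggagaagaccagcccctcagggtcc
Gstp1, chr19:4037980-4038162, minus strand: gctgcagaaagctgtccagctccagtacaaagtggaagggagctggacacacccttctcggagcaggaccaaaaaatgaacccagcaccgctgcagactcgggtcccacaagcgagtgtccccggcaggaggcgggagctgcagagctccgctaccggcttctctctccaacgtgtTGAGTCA
Gstp2, chr19:4042264-4042471, minus strand: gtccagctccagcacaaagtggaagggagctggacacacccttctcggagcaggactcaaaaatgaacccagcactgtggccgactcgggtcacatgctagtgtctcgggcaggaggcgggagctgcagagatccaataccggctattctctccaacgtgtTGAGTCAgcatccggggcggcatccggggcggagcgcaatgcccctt

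The marked bases begin 52 bases before the RefSeq start in Mgst2, 74 before it in Gstp1 and 89 before it in Gstp2. A RefSeq promoter, 250 bases before to 50 after a start, was found for 55 of the 63 members, 67 promoters in all. TGAGTCA, on either strand, lay in 9 of these 67 (13.43%), against 5.202% of the 32851 promoters in the table. The members that hold it are Mgst2, Gstp1, Gstp2, Gstm5, Sult1b1, Sult2b1, Sult1c1, Ugt2b37 and Ugt2a2. It thus stands in the promoters of genes at high level and of genes close to 0. The sequences of Mgst2, Gstp1 and Gstp2 were seen before this motif was searched, so its shares above do not test an excess. TGACNNNGC, a core form of the antioxidant response element, lay in 4 members (Gsta3, Gstm5, Gstm7 and Mgst1). That was 5.97% of promoters against 12.39% of the table. The form with G in place of its leading C was not searched, and the bases TGAGTCAGC in the Gstp2 run have that form. GCGTG, the core of the xenobiotic response element, lay in 10 members (17.91% against 32.39%). TGACNNNGC shares its leading letters TGAC with the reverse of TGAGTCA. A match or its lack describes these letters in this window and nothing more.

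Levels are FPKM, reads per gene scaled by gene length, so they can be compared between genes. The scaling between libraries followed median-ratio size factors of the recovered reads and not their total reads. The libraries held 5567988 to 15968416 recovered reads and 15399 to 17127 genes above 0. A gene was tested when it reached 1 FPKM in at least 4 libraries, which 12052 genes did. Markers of surface colonocytes, 10 of 10 detected, summed to 4657 to 11946 FPKM per library, whereas 6 fibroblast markers summed to 0.344 to 22.5 and 6 detected markers of B and plasma cells to 3.21 to 102.7. Some marker lists are given beside the results, and others differed by more in their median log2 difference. Dividing crypt cells stood at 0.819 in AOMDSS against control, beside 0.491 for goblet cells. With curcumin, fibroblasts stood at -0.997 against AOMDSS, beside -0.891 for B and plasma cells. Enteroendocrine cells stood at 0.937 with curcumin against control, beside 0.663 for goblet cells. No dividing crypt, fibroblast or enteroendocrine marker passed the test in these comparisons. Libraries also differed in how their values followed gene GC content: control 0, AOMDSS 0 and 1 and curcumin 0 and 1 ran higher in GC-rich genes, and the other 7 libraries ran higher in AT-rich genes. The AOMDSS and curcumin groups each held 2 of each kind, the control group 1 and 3. In bulk RNA, fewer cells of a type and less RNA per cell cannot be told apart.

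Of the 63 members, 39 were tested (20 Gst, 3 Mgst, 11 Ugt and 5 Sult), 12 were above 0 in some library but below the filter, and 12 were at 0 in every library. All but 2 of the tested members, Ugt2b5 and Gsto2, were at 1 FPKM or more in every library. The 12 silent members were Ugt3a1, Ugt3a2 and 10 sulfotransferases: Sult1e1, the oestrogen sulfotransferase, Sult3a1 and all 8 of Sult2a1 to Sult2a8, the hydroxysteroid and bile acid sulfotransferases that are known from liver. Every cytosolic Gst but Gstt4 was tested. At this depth the 12 silent genes were not detectable, which leaves a low level possible.

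Mgst3 was the highest member, with a mean of 794 FPKM over the 12 libraries, 22.1% of the summed FPKM of all members. It was followed by Gsto1 (371), the class omega enzyme that reduces rather than conjugates many substrates, and by Gstp1 (296), the class pi enzyme. Next came Sult1a1 (227), the phenol sulfotransferase, Mgst2 (224), Gstp2 (198), Ugt2b34 (192), Mgst1 (177), Gstm1 (144), Sult1d1 (140.2) and Sult1b1 (127). Those 11 were the members above 100 FPKM, and the order among neighbours such as Sult1a1 and Mgst2, or Gstp2 and Ugt2b34, is within the spread between libraries. Each family rested on few genes: Gsto1 gave 25.1% of the Gst sum, Ugt2b34 54.1% of the Ugt sum and Sult1a1 39.7% of the Sult sum, and the top 3 sulfotransferases gave 86.4%.

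**Figure D1:**
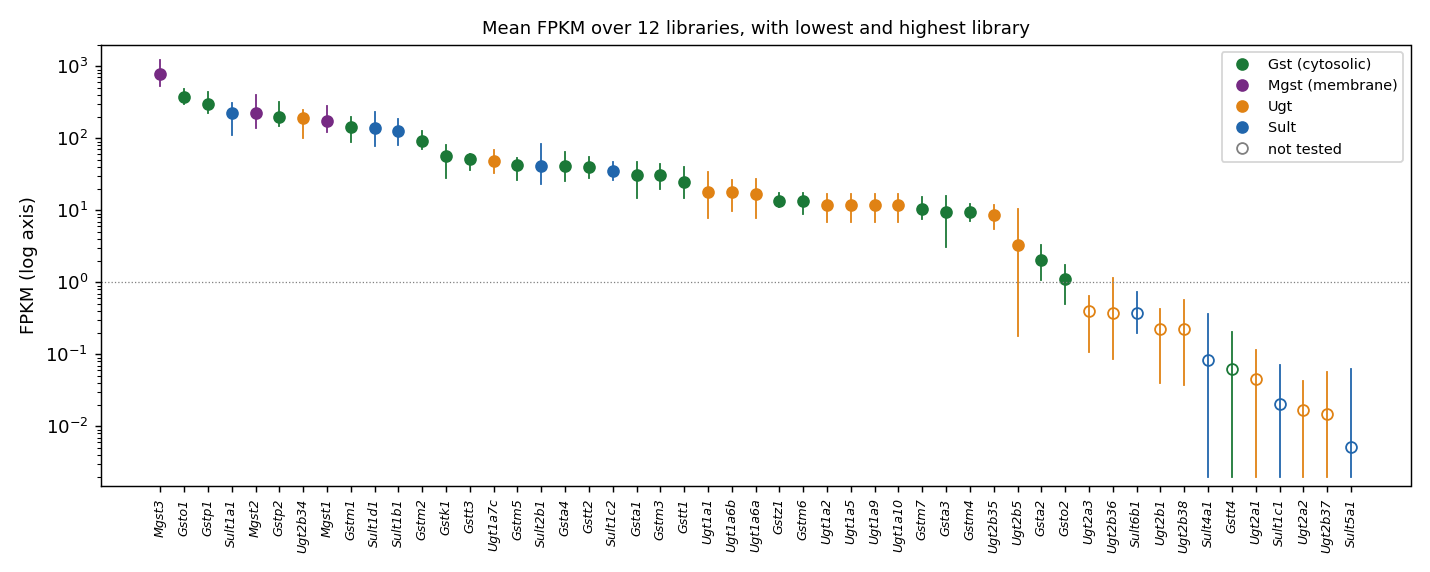
Mean FPKM over the 12 libraries (points, log axis) for the 51 members above 0 in any library, ordered by mean, with bars from the lowest to the highest library; colours give the family, open points were not tested and the dotted line is 1 FPKM. Mgst3 stands at 794 FPKM, 11 members lie above 100 and a bar that reaches the floor of the plot includes a library at 0.

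Between libraries the tested members spread more than genes in general. The highest library stood 2.48 times above the lowest in the median member, against 1.94 times in the median tested gene, and 10 of the 39 members stayed under a ratio of 2. Gsto1 was among the steadiest, at 298 to 477 FPKM. Ugt2b5 was the least steady, at 0.183 to 10.4 FPKM, with 5.51 in control 1 and at most 0.765 in the other control libraries. Several low members were set by single libraries too: Ugt2b36 read 1.135 FPKM in AOMDSS 3 and at most 0.702 elsewhere. Sult6b1, the highest untested sulfotransferase, read 0.198 to 0.742 FPKM.

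What AOM and DSS left different in these enzymes was asked by comparing AOMDSS with control. No member passed: 0 of 39 were past an adjusted p of 0.05, where 1.27% of all tested genes were (0.456% higher, 0.813% lower). The groups overlapped for every member, against 2.38% of genes with AOMDSS wholly above and 3.63% wholly below. The mean was higher in AOMDSS for 17 of 39 members and the median log2 difference was -0.02, beside 52.8% of all genes and a median of 0.02. All 5 tested sulfotransferases had the lower mean in AOMDSS, with a median of -0.30, although Sult1b1 and Sult2b1 turned within the GC-rich libraries, and the Gst genes were split, 9 of 20 higher. At an unadjusted p below 0.05, limma had 1 member higher (6.31% of genes) and 2 lower (7.15%). Without control 0 the number of members with the higher mean was 11.

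Mgst1, the microsomal transferase of broad substrate range, read 171, 158, 279 and 191 FPKM in control libraries 0 to 3 and 121, 157, 163 and 125 in AOMDSS. Control 2 stood apart at the top and the groups overlapped by a narrow margin, with AOMDSS 2 above control 1. The log2 difference was -0.47 ± 0.18 (SE), with a limma adjusted p of 0.259. Gsto2, a minor class omega gene, read 0.976, 1.55, 1.34 and 1.5 FPKM in control and 1.1, 0.496, 0.5 and 0.673 in AOMDSS. Only AOMDSS 0 reached the control range there (-0.48 ± 0.17, limma adjusted p 0.214). Gsta3, a class alpha enzyme, was the member with the largest positive difference: 9.05, 3.06, 9.22 and 3.5 FPKM in control and 9.49, 11.6, 7.2 and 12.5 in AOMDSS. The control libraries fell into 2 high and 2 low values, and the high ones lay among the AOMDSS values (0.74 ± 0.30, limma adjusted p 0.287).

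The rest of the named members lay closer together. Gstk1, the class kappa enzyme of mitochondria and peroxisomes, averaged 47.8 ± 19.6 FPKM (SD, n = 4) in control and 63.9 ± 19.5 in AOMDSS, and Gstm7 averaged 9.1 ± 0.976 and 11.6 ± 3.05. Gstt1, a class theta enzyme that acts on small halogenated compounds, averaged 23.6 ± 1.05 and 19.4 ± 5.31 FPKM, its AOMDSS libraries being 22.1, 14.7, 25.5 and 15.2. Sult1b1, a sulfotransferase of thyroid hormones and phenols, averaged 142 ± 40.8 and 111 ± 24 FPKM, and Sult1c2 38.5 ± 6.75 and 31 ± 4.79. None passed. The 95% interval of Mgst2 ran from -0.27 to 0.37 on the log2 scale. That of Sult1d1 ran from -0.89 to 0.42 and that of Gstk1 from -0.17 to 1.05. The 4 libraries a group thus leave room for changes in either direction, and for larger ones in some members than in Mgst2. Surface colonocyte markers ran lower in AOMDSS, at 4657 to 6798 FPKM in sum against 5778 to 11946 in control, and 4 of the 10 fell. Goblet cell markers summed to 4388 to 5988 FPKM in control and 5508 to 8170 in AOMDSS, and 1 of the 8, Spink4, rose from 572 ± 189 to 1348 ± 263 FPKM (1.28 ± 0.22, limma adjusted p 0.014). The part of either list in the members' values was not tested.

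The addition of curcumin was examined by comparing the curcumin group with AOMDSS. Here the conjugation genes lay on one side: the mean was higher with curcumin for 36 of 39 members, beside 49.1% of all genes, and the median log2 difference was 0.45, beside -0.01. Mgst2 rose and was the 1 member past the threshold; 0.73% of tested genes rose and 0.348% fell, and no member fell. The curcumin libraries lay wholly above the AOMDSS libraries for 9 of 39 members, against 4.95% of all genes, and wholly below for none, against 4.27%. At an unadjusted p below 0.05, limma had 20 members higher (7.59% of genes) and 0 lower (6.86%). Most single members therefore missed the adjusted threshold while standing on the same side.

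The means lay on the same side in each family. All 3 Mgst genes, all 11 tested Ugt genes and all 5 tested sulfotransferases had the higher mean with curcumin, and 17 of 20 Gst genes did. The median log2 difference was 0.52 for Mgst, 0.50 for Ugt, 0.35 for Gst and 0.25 for Sult. The 8 tested Ugt1a symbols share reads and count almost as one: without them 28 of 31 members were higher, 8 did not overlap and the median was 0.36. Of those 31, limma had 14 higher at an unadjusted p below 0.05. The exceptions were Gstk1, Gstm7 and Gstm5, with log2 differences of -0.06, -0.06 and -0.02, each within its own SE of 0. In sum the members gave 3111 ± 224 FPKM in AOMDSS (SD, n = 4) and 4241 ± 391 with curcumin, beside 3449 ± 464 in control. Between those groups the Gst sum was 1324 and 1774 FPKM, the Mgst sum 967 and 1453, the Ugt sum 314 and 410.3 and the Sult sum 506 and 603.9.

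**Figure D2:**
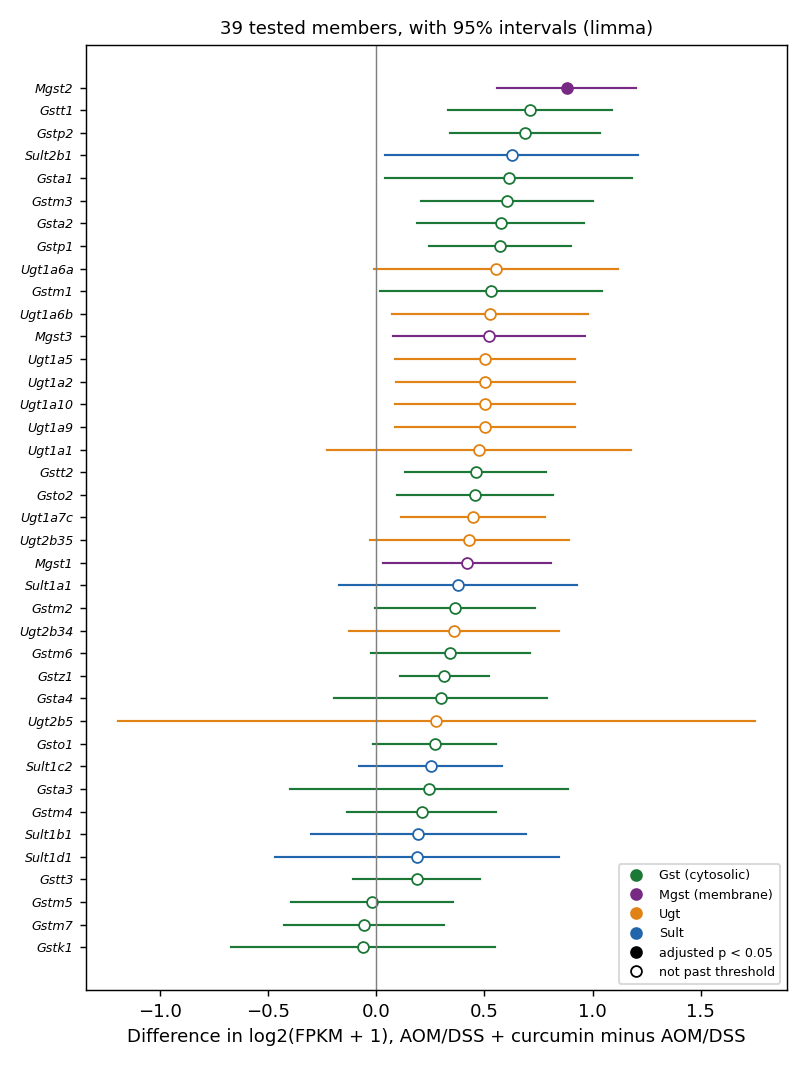
Difference in log2(FPKM + 1) between the curcumin and AOMDSS groups for the 39 tested members, with 95% intervals from limma; colours give the family and the filled point is the member past the adjusted threshold. 36 points lie right of 0, and Mgst2 is the filled one, at 0.88.

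Mgst2, a membrane transferase and leukotriene C4 synthase, read 157, 167, 190.3 and 185 FPKM in AOMDSS libraries 0 to 3 and 398, 307, 327 and 268 with curcumin. Every curcumin library stood above every AOMDSS library with a wide gap between the groups. The ratio of means was 1.86, and the log2 difference was 0.88 ± 0.15 (SE), with a limma adjusted p of 0.0149 over 12052 genes. Without curcumin 2 the adjusted p was 0.0524, so that library decides the call, while the difference was 0.78 to 0.97 over all 12 fits that left out 1 library. Curcumin was above AOMDSS in both kinds of library, at 307 FPKM or more against at most 167 in the GC-rich and at 268 or more against at most 190.3 in the AT-rich ones. In those smaller fits it no longer passed (log2 difference 1.10, adjusted p 0.151, and 0.66, adjusted p 0.321, with limma). None of the 50-base windows of its longest transcript occurs in a transcript of another gene, and no other gene's exons overlap it in GENCODE M21. Inexact or unannotated copies were not searched.

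Neither relative passed. Mgst3, which reduces lipid hydroperoxides, read 541, 627, 771 and 662 FPKM in AOMDSS and 1215, 845, 865 and 830 with curcumin. The groups did not overlap, and curcumin 0 stood far above its own group. The log2 difference was 0.52 ± 0.21, with a limma adjusted p of 0.262. Mgst1 read 192, 158, 190 and 216 FPKM with curcumin, against 121 to 163 in AOMDSS, and the groups overlapped (0.42 ± 0.18, limma adjusted p 0.301).

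The class pi pair, Gstp1 and Gstp2, came next. Gstp1 read 239.9, 281, 237 and 260.4 FPKM in AOMDSS and 441, 430.2, 371 and 289 with curcumin. Gstp2 read 146, 184, 156 and 167 FPKM in AOMDSS and 315, 317, 253 and 187 with curcumin. In both genes all curcumin libraries stood above all AOMDSS libraries, and curcumin 3 lay only just above them. The log2 differences were 0.57 ± 0.15 for Gstp1 (limma adjusted p 0.101) and 0.69 ± 0.16 for Gstp2 (0.0619). Without curcumin 3 both passed, at adjusted p-values of 0.0496 and 0.0166. The 2 genes are uncertain as separate entries: 62.3% of the 50-base windows of the Gstp1 transcript occur in Gstp2, and 64.3% of those of Gstp2 in Gstp1, and how the authors' counting split such reads is not given in the sources used here.

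**Figure D3:**
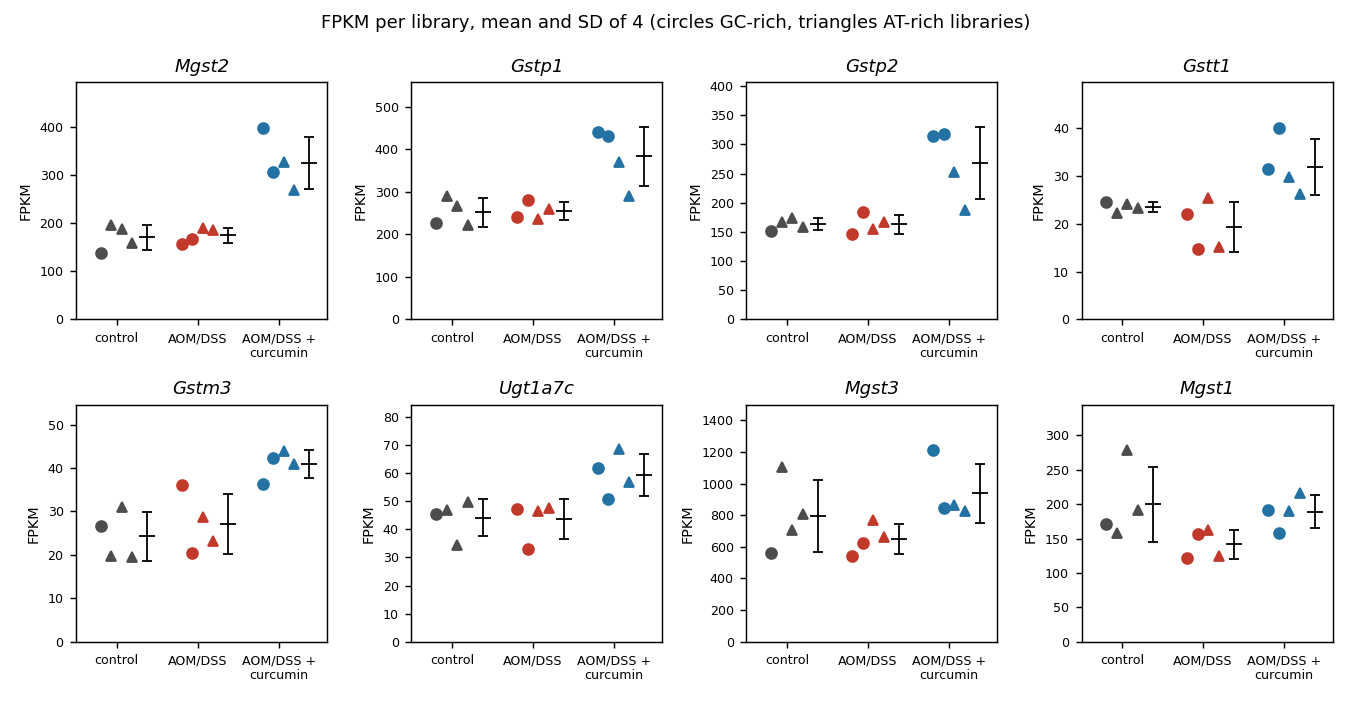
FPKM in each library for 8 members, by group, with the mean and SD of the 4 libraries beside the points; circles are GC-rich and triangles AT-rich libraries. In all panels but Mgst1 the 4 curcumin points lie above the 4 AOMDSS points, and in Mgst2 the lowest curcumin point, at 268 FPKM, is far above the highest AOMDSS point, at 190.3.

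Class theta and mu genes mostly had higher means with curcumin, and none passed. All tested class theta genes did, with log2 differences of 0.71 for Gstt1, 0.46 for Gstt2 and 0.19 for Gstt3. Of class mu, Gstm5 and Gstm7 are among the exceptions above. The other tested class mu genes, Gstm1, Gstm2 and Gstm3 among them, had higher means with curcumin. Gstt1 read 22.1, 14.7, 25.5 and 15.2 FPKM in AOMDSS and 31.4, 40.1, 29.8 and 26.2 with curcumin. Its groups did not overlap, by a margin of less than 1 FPKM between curcumin 3 and AOMDSS 2. The log2 difference was 0.71 ± 0.17, with a limma adjusted p of 0.0748, and 0.034 without AOMDSS 2. Gstm3 read 36.03, 20.4, 28.7 and 23.3 FPKM in AOMDSS and 36.3, 42.3, 44 and 40.9 with curcumin, which again just kept the groups apart (0.60 ± 0.18, limma adjusted p 0.153). Part of Gstm3, 28.8% of its windows, occurs in other genes, so its level is less certain. Gstm1, the main class mu enzyme, averaged 124 ± 33.8 FPKM in AOMDSS and 176 ± 6.47 with curcumin, with AOMDSS 0 at 174 inside the curcumin range of 168 to 181 (0.53 ± 0.24, limma adjusted p 0.324). Gstm2 averaged 79.8 ± 10.8 and 102 ± 7.5 FPKM (limma adjusted p 0.353).

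Gstz1, the class zeta enzyme of tyrosine breakdown, was a small but even case. It read 13.2, 12.1, 12.7 and 13.2 FPKM in AOMDSS and 16, 17.2, 16.4 and 15.1 with curcumin. The groups were apart and each was tight, and the log2 difference was 0.32 ± 0.10 with a limma adjusted p of 0.15. Exons of Pomt2 on the other strand overlap 12.2% of its exon bases, and the strand setting of the counting is not given, so a share of its reads may belong to that gene. Gsto1 read 335, 358, 298 and 371 FPKM in AOMDSS and 477, 391.5, 397 and 379 with curcumin, apart by a narrow margin (0.27 ± 0.13, limma adjusted p 0.371).

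Class alpha genes, which reduce lipid peroxidation products and conjugate aldehydes, overlapped between the groups. Gsta1 averaged 25.5 ± 8.66 FPKM in AOMDSS and 38.8 ± 10 with curcumin (0.61 ± 0.26, limma adjusted p 0.307), and 89.7% of its windows occur in another gene, mostly the predicted gene Gm3776. Gsta4, which is known to act on 4-hydroxynonenal, averaged 39.6 ± 17.2 and 46.3 ± 5.16 FPKM. AOMDSS 3 alone was at 64.5 FPKM there, above every curcumin library. Gsta3 averaged 10.2 ± 2.37 and 12.2 ± 2.59 FPKM. Gsta2, a low gene, averaged 1.47 ± 0.46 and 2.68 ± 0.6 FPKM (0.57 ± 0.18, limma adjusted p 0.159). Gsto2 averaged 0.691 ± 0.282 and 1.32 ± 0.359 FPKM (0.45 ± 0.17, limma adjusted p 0.223).

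The Ugt1a symbols need to be read together. The locus makes several enzymes by joining alternative first exons to one set of common exons, and the deposited values carry that overlap: Ugt1a2, Ugt1a5, Ugt1a9 and Ugt1a10 held the same number of recovered reads in each library to within 1 read, for example 289 in control 0. That count, 191 to 885 reads per library, is taken here as shared by the locus, and reads above it as a symbol's own. The reads above it summed to 810 to 3784 per library, more than the count itself in each. In GENCODE M21, 54.6% of the exon bases of Ugt1a7c are also exons of other genes on its strand. Reads called own may therefore include reads of the common exons, which was not tested. Only Ugt1a7c, Ugt1a1, Ugt1a6a and Ugt1a6b had reads of their own beyond 1. Ugt1a7c held 55.1% to 92.2% of these, and AOMDSS 3, with Ugt1a1 at 31.5%, was the library where it held least. The values of Ugt1a2, Ugt1a5, Ugt1a9 and Ugt1a10, near 12 FPKM, therefore describe the common exons and do not show that those enzymes were expressed.

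**Figure D4:**
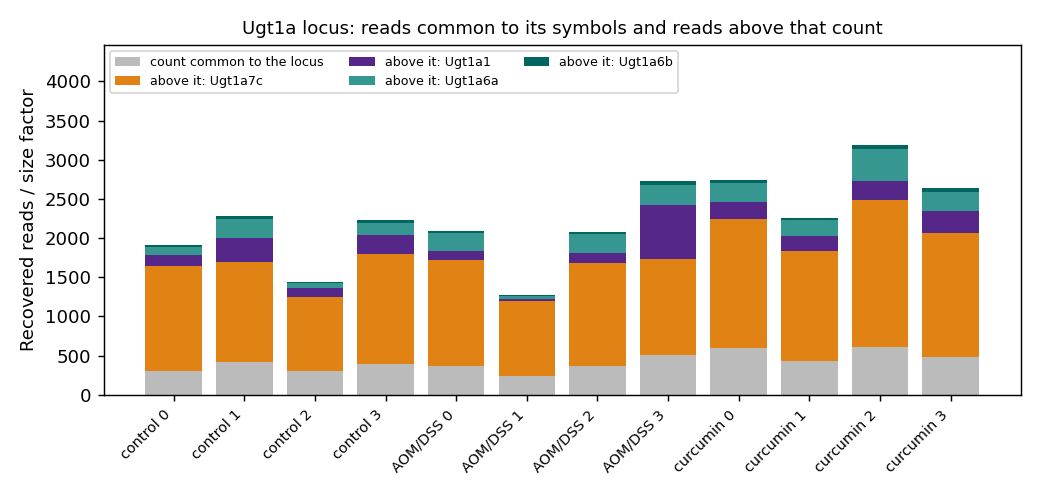
Recovered reads divided by the size factor of the library at the Ugt1a locus, stacked per library: the count common to its symbols in grey and the reads above it for Ugt1a7c, Ugt1a1, Ugt1a6a and Ugt1a6b in colour. Ugt1a7c is the tallest part of every bar, from 949 to 1407 scaled reads in control and AOMDSS libraries together and from 1406 to 1880.5 with curcumin.

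Scaled by library size, the own reads of Ugt1a7c were 1351, 949, 1314 and 1219 in AOMDSS and 1635, 1406, 1880.5 and 1580.5 with curcumin. The groups did not overlap, and the ratio of means was 1.35. The deposited level of Ugt1a7c was 43.5 ± 7.16 FPKM in AOMDSS and 59.4 ± 7.51 with curcumin (0.45 ± 0.15, limma adjusted p 0.2). The own reads of Ugt1a1, the bilirubin-conjugating enzyme, were 119, 33, 133 and 696 in AOMDSS and 224, 187, 248 and 282 with curcumin. One library, AOMDSS 3, stood above all others there, and the means of 245 and 235 hardly differed. Own reads of Ugt1a6a, an enzyme of planar phenols, averaged 188 ± 98.4 and 274 ± 85.5, and those of Ugt1a6b 28.3 ± 16.7 and 40.5 ± 12.8; in both the groups overlapped.

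The Ugt2 genes were led by Ugt2b34. It read 173, 99.7, 200.3 and 194 FPKM in AOMDSS and 188, 167, 231 and 249.9 with curcumin. AOMDSS 1 was lowest by far and the groups otherwise overlapped (0.36 ± 0.22, limma adjusted p 0.501). Ugt2b35 averaged 7.31 ± 2.05 and 10.1 ± 2.09 FPKM (limma adjusted p 0.381). Ugt2b5 averaged 4.4 ± 4.86 and 3.68 ± 2.05 FPKM; its mean FPKM was lower with curcumin and its mean log2 value higher, by 0.28 ± 0.68, since AOMDSS held 2 high libraries (6.35 and 10.4 FPKM) and 2 low ones (0.183 and 0.691). The sequences of Ugt2b5 and Ugt2b38 overlap as well, with 41.7% and 37.4% of their windows in other genes.

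Among the sulfotransferases none passed and every pair of groups overlapped. Sult2b1, the cholesterol and steroid sulfotransferase, had the largest difference: 32.2, 41.6, 32.3 and 23.5 FPKM in AOMDSS and 84.2, 46.8, 33.7 and 45.3 with curcumin. Curcumin 0 stood far above the next library, and the log2 difference was 0.63 ± 0.27 with a limma adjusted p of 0.306. Sult1a1 read 312, 111, 238 and 153 FPKM in AOMDSS and 237, 238, 273 and 237 with curcumin. The AOMDSS libraries ranged on both sides of the curcumin ones (0.38 ± 0.25, limma adjusted p 0.541). Sult1b1 averaged 111 ± 24 and 127 ± 23.5 FPKM, Sult1d1, an enzyme of catecholamines, 128 ± 45.2 and 141 ± 30.3, and Sult1c2 31 ± 4.79 and 37.1 ± 5.15.

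Cell type markers ran with this comparison. The summed surface colonocyte markers were 4657 to 6798 FPKM in AOMDSS and 8135 to 11939 with curcumin, and 5 of 10 rose. Macrophage and dendritic cell markers summed to 16.3 to 56.3 FPKM in AOMDSS and 4.13 to 29.2 with curcumin, B and plasma cell markers to 15.9 to 102.7 and 3.21 to 23.8, and red cell markers to 19.6 to 359.6 and 28.8 to 40.8. No marker of those 3 lists passed the test. The part of any of these in the members' values was not tested.

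Against control, the curcumin group shares its libraries with the comparison above, so the values only place it. Mgst2 again rose and was the 1 member past the threshold, beside 0.0913% of genes that rose and 0.0498% that fell. Its control libraries read 138, 196, 187 and 159.6 FPKM, all below the curcumin libraries, and the log2 difference was 0.93 ± 0.15 (limma adjusted p 0.0383). That call was lost in 6 of the 12 fits that left out a library (control 0 or 3, AOMDSS 2, or curcumin 0, 1 or 2), with adjusted p-values up to 0.14, and under 6 of 16 other settings, although the difference stayed between 0.83 and 1.02. The mean was higher than control for 34 of 39 members, beside 52.5% of genes, and the median log2 difference was 0.39, beside 0.01. The libraries did not overlap for 12 members, all higher (3.72% of genes higher, 4.55% lower), of which 6 were Ugt1a symbols that share reads. At an unadjusted p below 0.05, limma had 16 higher (5.87%) and 0 lower (6.31%). Without the Ugt1a symbols 26 of 31 members were higher than control, with a median of 0.28, and 6 did not overlap. Of those 31, limma had 9 higher at an unadjusted p below 0.05.

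Several members that stood apart from AOMDSS stood apart from control too. Gstp2 read 152, 168, 175 and 158 FPKM in control, all below the lowest curcumin library at 187 (0.68 ± 0.16, limma adjusted p 0.114). Gstm3 read 26.8, 19.7, 31.1 and 19.5 FPKM in control against at least 36.3 with curcumin (0.75 ± 0.18, limma adjusted p 0.129). Gstz1 averaged 11.8 ± 0.955 FPKM in control and 16.2 ± 0.894 with curcumin (0.42 ± 0.10, limma adjusted p 0.105). Gsta3 had the largest difference, 6.21 ± 3.39 against 12.2 ± 2.59 FPKM (0.99 ± 0.30, limma adjusted p 0.204), with its lowest curcumin library at 10.3 above the highest control at 9.22. The control level of Gstp1 was 252 ± 33.3 FPKM, and one control library, at 291, was above curcumin 3 (0.59 ± 0.15, limma adjusted p 0.139). The log2 differences from control were -0.14 for Sult1b1, -0.05 for Sult1c2, Sult1d1 and Mgst1, and 0.11 for Sult1a1. Sult2b1 lay furthest from control among the sulfotransferases, at 40.7 FPKM in control and 52.5 with curcumin (0.32 ± 0.27, limma adjusted p 0.66). Each of these 6 signs turned under some settings. Cell type markers differed here too, with none past the test: goblet cell markers summed to 4388 to 5988 FPKM in control and 6978 to 8817 with curcumin, and red cell markers to 65.5 to 355 and 28.8 to 40.8, both without overlap. Surface colonocyte markers summed to 5778 to 11946 and 8135 to 11939 FPKM. Their part in the members' values was not tested.

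Other genes of the same pathways were read from lists of glutathione supply, mercapturate formation, UDP-glucuronate and PAPS supply, related transferases, exporters and transcription factors. These 8 lists were chosen with earlier results of these data known. Tested were 14 glutathione, 8 mercapturate, 10 UDP-glucuronate, 12 PAPS, 14 other transferase and hydrolase, 12 Gst relative, 12 exporter and 20 transcription factor genes. In AOMDSS against control 1 of them rose and 4 fell, beside 0.456% and 0.813% of all tested genes. With curcumin against AOMDSS 6 rose and none fell, beside 0.73% and 0.348%. With curcumin against control 2 rose and none fell, beside 0.0913% and 0.0498%. Every one of these calls was lost in the GC-rich and in the AT-rich libraries alone, where fewer samples entered; the losses named below come on top of that. Of 14 tested glutathione genes, Gclc, the catalytic subunit of the rate-limiting step of glutathione synthesis, read 20.4, 17.5, 23.4 and 25.7 FPKM in AOMDSS and 36.7, 66.4, 41.4 and 33.4 with curcumin. Its groups were apart, with curcumin 1 highest, and it rose by 0.96 ± 0.19 (limma adjusted p 0.0284); the call was lost without AOMDSS 0 or 1 or curcumin 0 or 2, with no filter, after scaling to a common sum, with the replicate number as a block and in a fit of the 2 groups only. The modifier subunit Gclm averaged 32.8 and 43.9 FPKM (limma adjusted p 0.116). Cbs, the first enzyme of cysteine synthesis from homocysteine, averaged 10.2 ± 1.97 FPKM in control and rose to 23.8 ± 7.55 in AOMDSS (1.11 ± 0.19, limma adjusted p 0.0124), a call lost without control 3 and in a fit of the 2 groups only. Me1, the NADP-dependent malic enzyme, had the largest difference of the list in AOMDSS, from 0.163 to 1.32 FPKM in control to 1.64 to 6.53, without overlap (1.28 ± 0.34, limma adjusted p 0.0939).

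Among 14 tested transferases and hydrolases of drug conjugation outside the 3 families, Ephx2 and Nqo1 passed in some comparison. Ephx2, the soluble epoxide hydrolase, read 17.2, 18.3, 16.6 and 23.4 FPKM in control, 8.82, 9.22, 8.49 and 11.8 in AOMDSS and 24.6, 22.1, 26.4 and 23.3 with curcumin. The AOMDSS libraries stood below both other groups. Ephx2 fell in AOMDSS (-0.91 ± 0.13, limma adjusted p 0.00566) and rose with curcumin over AOMDSS (1.25 ± 0.13, adjusted p 0.000944), and both calls held in all 12 fits that left out a library. Nqo1, the quinone reductase and a known Nrf2 target, read 22.8, 14.4, 25.3 and 27.4 FPKM in AOMDSS and 49.5, 48.5, 59.9 and 30.4 with curcumin. The groups were apart, but the limma adjusted p was 0.0647 against AOMDSS; against control (16.9 ± 4.97 FPKM) it rose by 1.42 ± 0.24 (adjusted p 0.0447), a call kept only without control 1, AOMDSS 1 or 3, or curcumin 3, and lost with a pseudocount of 0.1, with no filter, with the replicate block and with no intensity trend. Their relatives Ephx1, the microsomal epoxide hydrolase, and Nqo2 did not pass, at 9.02 and 9.14 FPKM in AOMDSS and 11.6 and 9.02 with curcumin. Nat2, an arylamine acetyltransferase, averaged 34.3 ± 6.74 FPKM in control and 23.8 ± 5.6 in AOMDSS (limma adjusted p 0.314).

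Supply and export genes passed in single cases. Entpd5, a nucleotidase of the endoplasmic reticulum, averaged 51.2 ± 14.8 FPKM in AOMDSS and 96.7 ± 8.74 with curcumin (0.95 ± 0.20, limma adjusted p 0.0441), a call kept only without control 1 or 2 or AOMDSS 1 or 2, and lost in 9 of 16 other settings, among them no filter, a common sum, quantile scaling, the replicate block and the 2 groups only. Ugdh, which makes UDP-glucuronate, averaged 146 and 279 FPKM and did not pass (limma adjusted p 0.164). Slc35b2, the Golgi transporter of PAPS, averaged 23.8 ± 1.61 FPKM in control and 35.9 ± 1.57 with curcumin (0.57 ± 0.09, limma adjusted p 0.0357), a call kept only without control 2 or AOMDSS 0, 1 or 3, and lost with a common sum, the replicate block, the GC trend removed and the 2 groups only. The sulfate transporters had the largest differences of that list: Slc26a2 read 139 to 306 FPKM in control and 92.6 to 182 in AOMDSS (-0.92 ± 0.26, limma adjusted p 0.108), and Slc13a1 1.94 to 34 in AOMDSS, highest in AOMDSS 3, and 2.42 to 3.84 with curcumin (-1.14 ± 0.61, limma adjusted p 0.42). The PAPS synthases Papss1 and Papss2 averaged 69.8 and 109 FPKM in AOMDSS and 61.3 and 108 with curcumin.

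Among exporters, Abcb1a, the P-glycoprotein drug pump, read 81.6, 55.4, 112 and 103 FPKM in AOMDSS and 264, 209.6, 242 and 221 with curcumin. It rose by 1.44 ± 0.24 (limma adjusted p 0.0126), in all 12 fits that left out a library. Its close copy Abcb1b averaged 3.04 ± 0.773 and 7.92 ± 1.18 FPKM and rose by 1.15 ± 0.22 (limma adjusted p 0.0245), a call lost without AOMDSS 3 or curcumin 0, 1 or 2 and with no filter. The prostaglandin carrier Slco2a1 fell in AOMDSS from 53.7 ± 16.9 FPKM to 24.7 ± 0.685 (-1.04 ± 0.22, limma adjusted p 0.0424), a call kept only without control 2 or curcumin 0, and lost with no filter and with the 2 groups only. Clic5, a relative of the Gst fold, fell from 101 ± 24 to 53.3 ± 11.6 FPKM (-0.91 ± 0.20, limma adjusted p 0.0469), kept only without control 2, AOMDSS 2 or curcumin 1, and lost with no filter, a common sum, the replicate block and the 2 groups only. Of the other tested relatives, Vars averaged 12.8 and 21.2 FPKM in control and AOMDSS, and Gstcd 2.99 and 1.96 and Ptges2 21.6 and 27.9 in AOMDSS and with curcumin; none of these passed. Of the conjugate exporters Abcc3 and Abcg2, neither passed.

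Of 20 tested transcription factors, 2 passed in some comparison. Vdr, the vitamin D receptor, read 209, 200.5, 189 and 221 FPKM in control, 109, 106, 136 and 109 in AOMDSS and 149.9, 159, 158 and 139 with curcumin. It fell in AOMDSS by 0.83 ± 0.11 on the log2 scale (limma adjusted p 0.00366), and the curcumin libraries lay between the other groups without overlap (0.40 ± 0.11 over AOMDSS, limma adjusted p 0.119). Nr1i3, the xenobiotic receptor CAR, averaged 3.25 ± 1.36 FPKM in AOMDSS and 9.59 ± 1.41 with curcumin (1.36 ± 0.23, limma adjusted p 0.0155), a call lost without curcumin 0, 1 or 2. Nfe2l2 itself averaged 97.3 and 99.8 FPKM and its inhibitor Keap1 16.5 and 15.7. Cdx2, the intestinal homeobox factor, had the largest positive difference of the list in AOMDSS, at 20.9 to 97.8 FPKM in control and 64.3 to 105 in AOMDSS (0.89 ± 0.36, limma adjusted p 0.287), and averaged 64.1 with curcumin.

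No gene of the mercapturate list, which turns glutathione conjugates into excretable cysteine conjugates, passed in any comparison. Ggt1, a gamma-glutamyltransferase, read 0.8 to 1.29 FPKM in control and 1.09 to 10 in AOMDSS, highest in AOMDSS 3, and Anpep, an aminopeptidase, 1.32 to 3.18 and 0.673 to 1.61 (limma adjusted p 0.46 and 0.15). Dpep1, a dipeptidase, read 59.3 to 188 FPKM in AOMDSS and 193 to 321 with curcumin, without overlap (0.94 ± 0.41, limma adjusted p 0.319), and Nat8, a cysteine conjugate acetyltransferase, 0.109 to 0.618 and 0.582 to 2 FPKM (0.82 ± 0.28, limma adjusted p 0.2). With curcumin against AOMDSS the median log2 difference was 0.37 for the mercapturate list, 0.33 for the other transferases and hydrolases, 0.32 for the exporters, 0.21 for the glutathione list, 0.11 for UDP-glucuronate supply, 0.09 for the Gst relatives, -0.01 for the transcription factors and -0.05 for PAPS supply, beside -0.01 for all genes.

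**Figure D5:**
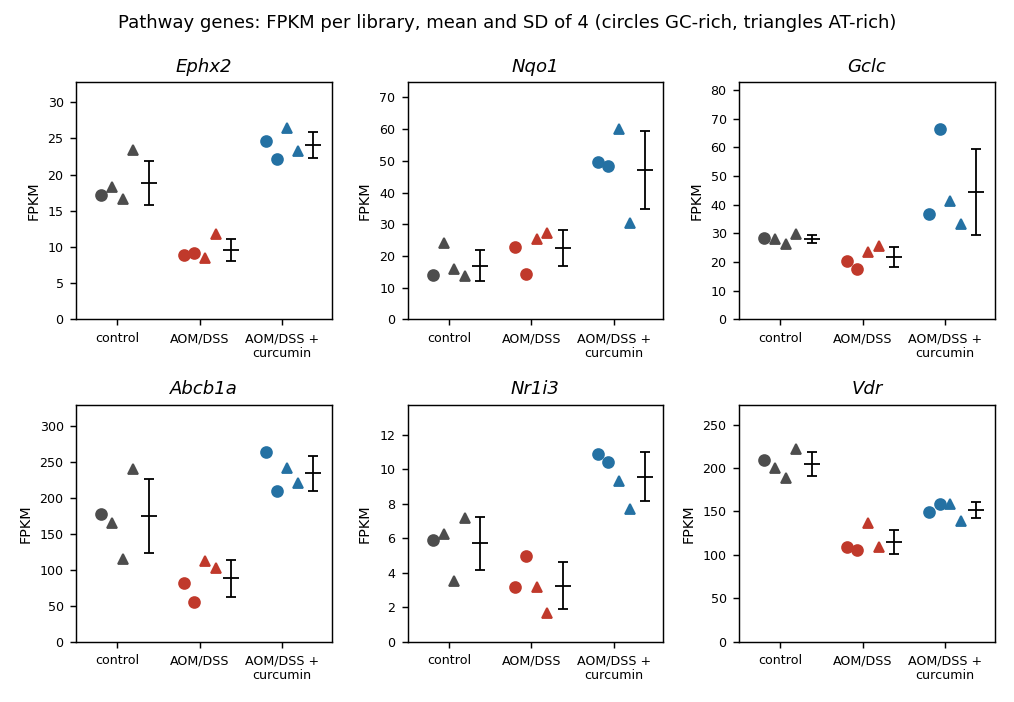
FPKM in each library for 6 genes of the surrounding pathways, with the mean and SD of the 4 libraries of a group; circles are GC-rich and triangles AT-rich libraries. The AOMDSS points of Ephx2 lie below both other groups, at 8.49 to 11.8 FPKM, and those of Vdr lie lowest, at 106 to 136 FPKM.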

How the data were processed

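Total RNA from 12 libraries was sequenced, and the authors deposited FPKM values, 1 file per library and per gene symbol, per the labels. The submitters' processing notes list, with no role for each, featureCounts 1.5.1, TopHat2 2.1.1 with Bowtie2 2.2.6, DESeq2 1.14.1 in R 3.4.0, Picard and the build mm9; annotation and strand setting are not given in the sources used here. The FPKM of all 19233 genes above 0 were whole multiples of a step (tolerance 0.001 reads), which gave recovered reads and size factors.

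After adding 1 FPKM and taking log2, values went into limma 3.58.1 (R 4.3.3; eBayes used an intensity trend), all 12 libraries in 1 model of group means (9 residual degrees of freedom), Benjamini-Hochberg adjustment over 12052 genes and a threshold of 0.05. The filter was 1 FPKM in at least 4 libraries. Differences are on this log2(FPKM + 1) scale, so those of low genes are understated. The fit was also run on simulated reads, drawn independently for each gene, without GC differences between libraries or shared reads. That run therefore does not show how the fit handles those features of these libraries.

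The members, the gene lists and the markers were chosen with earlier results of these data known. Named were members past the threshold, the highest of each family, the 4 largest differences each way per comparison, 14 set members and, of each pathway list, the genes past the threshold and the 2 largest differences in AOMDSS against control and in curcumin against AOMDSS; Gstz1, Gstt2, Gsta2, Ugt2b35, Ugt2b36 and the remaining low genes were named after their values were seen, as were Ephx1, Nqo2, Papss1, Papss2, Abcc3, Abcg2, Nfe2l2 and Keap1.

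Shared sequence was measured as the share of a transcript's 50-base windows found in another gene, and exon overlap and GC content came from GENCODE M21 (GRCm38), after 11969 of 12052 tested genes matched (99.3%). GC-rich libraries are those whose deviations from the overall mean had a positive correlation, across genes, with GC content. Promoters came from RefSeq GRCm38.p6. No coordinates were moved between builds. Alternatives changed the pseudocount, filter, scaling, GC treatment, variance model, libraries fitted and unit (voom on recovered reads), added the replicate number as a block, or left out each library.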

Additional observations from a re-analysis of the deposited data

Results flagged for a closer look

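In 5 of the 99 member-by-group sets of 4 libraries, 1 library lay far from the other 3 by Dixon's ratio of gap to range; chance gives about 1 set in 20. Mgst3 in curcumin library 0 was at 1215 FPKM, the others at 829.7 to 865. Sult1a1 in curcumin 2 was at 273.1 FPKM, the others at 237 to 238. Ugt1a7c in AOMDSS 1 was at 32.82 FPKM, the others at 46.3 to 47.7. Ugt2b5 in control 1 was at 5.513 FPKM, the others at 0.513 to 0.765. Gstm7 in control 3 was at 7.646 FPKM, the others at 9.51 to 9.73.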

How the results depend on the processing

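No member passed in AOMDSS against control under any of the 28 alternatives, and of 39 members the number with the higher mean was 16 to 21, and 11 to 19 when 1 library was left out (11 without control 0, 12 without AOMDSS 3). For curcumin against AOMDSS the number past the threshold, 1 in the main model, was 2 after scaling to a common sum, removing the GC trend or adding the GC group as a covariate (Gstp2 joined), 4 with library weights, 0 in either kind of library alone (fewer samples) and 0 to 3 when 1 library was left out: 0 without curcumin 2, 2 without AOMDSS 2 (Gstt1 joined) and 3 without curcumin 3 (Gstp1 and Gstp2). The number with the higher mean was 35 to 38 of 39, and 34 to 39 when 1 library was left out. For curcumin against control the number past the threshold, 1, was 0 with no filter (more genes tested), with the replicate block, with the block and the GC trend removed, in either kind of library alone and with only the 2 groups, 5 with library weights, and 0 to 2 when 1 library was left out (2 without curcumin 3); the number with the higher mean was 31 to 37, and 33 to 37. With no filter 51 members were tested and 21, 42 and 39 were higher in these comparisons, and with a filter of 5 FPKM 37 were tested and 17, 34 and 33 were. Apart from the cases named, the cause was not tested.

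The labels do not say what the replicate number marks. Deviations of same-numbered libraries correlated at -0.333 to 0.456 over all group pairs. For AOMDSS with curcumin these correlations were 0.036 to 0.357, and libraries of unlike number but the same GC kind there gave 0.218 to 0.382. In those 2 groups numbers 0 and 1 were GC-rich and 2 and 3 AT-rich. Same-numbered libraries there thus shared the GC kind too, and whether they shared a batch was not tested. With the replicate block the adjusted p of Mgst2 was 0.111 against control, and 1 member passed against AOMDSS. Of the 39 members, 22 turned sign under some setting in AOMDSS minus control, 5 in curcumin minus AOMDSS and 12 in curcumin minus control. Those whose differences are discussed follow; none had passed. In AOMDSS minus control these were Sult1b1 at 0.058 and Sult2b1 at 0.23 in the GC-rich libraries, and Mgst2 at -0.048 to 0.12 when 1 library was left out. In curcumin minus AOMDSS they were Gstk1 at 0.32 and Gstm7 at 0.23 in the GC-rich libraries and Sult1d1 at -0.011 in the AT-rich ones. With 1 library left out there, Gstk1 ran from -0.25 to 0.071, Gstm5 from -0.083 to 0.066, Gstm7 from -0.22 to 0.076, Sult1d1 from -0.021 to 0.35 and Ugt2b5 from -0.26 to 0.83. In curcumin minus control, with the GC trend removed, with or without the block, Mgst1 was at 4.057e-05, Sult1c2 at 0.014 and Sult1d1 at 0.048. In the GC-rich libraries Mgst1 was at 0.024, Sult1b1 at 0.36, Sult1c2 at 0.21 and Sult1d1 at 0.37. With library weights Mgst1 was at 0.039, Sult1c2 at 0.031 and Sult1d1 at 0.068, and with the GC covariate Sult1d1 was at 0.14. Sult2b1 was at -0.095 with library weights and -0.12 in the AT-rich libraries. With 1 library left out Mgst1 ran from -0.15 to 0.12, Sult1b1 from -0.35 to 0.011, Sult1c2 from -0.13 to 0.046, Sult1d1 from -0.27 to 0.18 and Sult1a1 from -0.0005842 to 0.16.

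The limits are those of 4 libraries a group, of symbols that share reads (Ugt1a, Gstp1 with Gstp2, Gsta1) and of unstated counting rules. Depth limits the 24 members below the filter.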
